A study of Homo sapiens with 6 samples.

Results

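The region described here is a gene-dense stretch of chromosome 19 around BAX and IRF3, in which 1 topologically associated domain (TAD) of the control siRNA map of LNCaP cells was listed as 4 TADs in the CTCF siRNA map. It was chosen from the TAD lists of these same maps, as the control TAD subdivided into the largest number of CTCF siRNA TADs, so every difference between the maps is given as a description and without a test. Of the control TADs that held more than 1 CTCF siRNA TAD, 133 held 2, 17 held 3 and 1 held 4. The control TAD spanned chr19:49100001-50620000 in build hg19, a length of 1.52 Mb, and the 40 kb bins around it spanned chr19:48600001-51120000. These were 63 bins, 61 of them usable, beside 1044 counted on chromosome 19 and 64692 in the series. The sequence comparison below used a larger set, with 1390 bins of chromosome 19. A total of 85 protein-coding genes overlapped the TAD, of which 9 were followed throughout: FUT1, BAX, FTL, TEAD2, FLT3LG, FCGRT, IRF3, PRMT1 and NUP62.

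The study compared Hi-C, which counts read pairs that join distant pieces of cross-linked DNA, between 2 libraries of LNCaP cells given control siRNA and 4 libraries given CTCF siRNA. LNCaP is an established androgen-responsive prostate cancer cell line. Both groups received 20 nM of an siRNA pool, non-targeting in one and directed at CTCF in the other, and were collected at 144 h, to learn how CTCF depletion alters chromatin folding. The CTCF siRNA libraries were labelled as replicates 1, 2, 1.1 and 2.1, and the labels do not say what separates 1 from 1.1. The authors pooled the libraries of each condition into 1 map, so there was no replicate, and every error below covers counting only.

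TADs are stretches of chromosome whose DNA contacts itself more often than it contacts the neighbouring stretches. CTCF is a zinc finger protein that halts the cohesin complex as it extrudes DNA loops, and many TAD boundaries carry CTCF sites, while others lie at clusters of active genes. A promoter and an enhancer within a TAD meet more often than across its boundary, so the genes that share a TAD tend to share regulatory surroundings.

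The CTCF core motif was searched on both strands as CC, any base, C, any base, AGG, any base, GGC, any base, C, of the GRCh37 (hg19) sequence. It matched in 24 of the 63 bins (38.1%) with 37 matches, against 18.1% of 1390 bins of chromosome 19 and 6.31% of 66846 autosomal bins. A match is a run of letters and not a bound site. The matches at or beside the edges inside the control TAD and at its downstream edge are shown because the comparison turns on these positions, each read 5′ to 3′ on its own strand with the 14 bases of the core in capitals and 8 flanking bases on either side.
CGB2 match, chr19:49535162-49535175 (−): ccttcctcCCTCCAGGGGGCGCcacggaac
CGB1 match, chr19:49540146-49540159 (+): ccttcctcCCTCCAGGGGGCGCcacggaac
FLT3LG match, chr19:49977407-49977420 (+): gcctctcaCCACCAGGGGGCGCgctccgcc
RPL13A match, chr19:49993139-49993152 (−): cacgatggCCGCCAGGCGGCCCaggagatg
match after NUP62, chr19:50441081-50441094 (+): ggagtctgCCGCCAGGTGGCGCgcgtaccc
downstream edge match, chr19:50601321-50601334 (−): ccttcctcCCTCCAGGGGGCGCcatggaac

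The coordinates above are those of the core. In the GENCODE annotation the CGB2 match began 15 bases after the start of CGB2, in its 5′ untranslated region, and the CGB1 match overlapped the start of CGB1. They carried identical letters on opposite strands. The FLT3LG match began 57 bases before the start of FLT3LG, in an intron of an overlapping gene model without a symbol. The RPL13A match lay in a coding exon of RPL13A, and the match after NUP62 lay 8060 bases upstream of the start of NUP62 in the bin that follows the edge. The sequence shown for the downstream edge occurred 12 times on the minus strand between 50594185 and 50642625, in intergenic DNA, with 9 of the copies in the edge bin itself. That edge was listed in both maps.

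Depth differed between the maps and set the precision of all values. Contacts within chromosomes numbered 13665306 in control siRNA and 56304164 in CTCF siRNA, 4.12 times as many, and on chromosome 19 there were 6.33 times as many. Contacts within the window numbered 9627 in control siRNA and 60814 in CTCF siRNA, and those within the control TAD 5826 and 36472. A usable bin of the window had between 68 and 935 contacts within the chromosome in control siRNA (median 265) and between 494 and 5859 in CTCF siRNA (median 1738), and 61 of the 63 bins were usable. The ratio of the maps per bin ranged from 5.43 to 8.39 with a median of 6.35. The GC content of these bins ranged from 42.2% to 59.4%, with a median of 52.5% against 39.8% over autosomal bins. Across the 61 bins, which share the same pooled maps, GC content and this ratio had a Pearson correlation of -0.13, and the part of base composition in the results was not tested.

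The 4 CTCF siRNA TADs filled the control TAD exactly, since their outer edges coincided with its own. Part 1 spanned chr19:49100001-49540000, 440 kb with the starts of 28 protein-coding genes, FUT1, BAX and FTL among them. Part 2 spanned chr19:49540001-49980000, also 440 kb, with 26 gene starts, TEAD2 in its interior and FLT3LG in its last bin. Part 3, chr19:49980001-50420000, was again 440 kb, with 22 gene starts including FCGRT, IRF3 and PRMT1. Part 4, chr19:50420001-50620000, was 200 kb with 8 gene starts, NUP62 near its first edge. The control TAD upstream, 640 kb long, was also divided in CTCF siRNA, at position 48820000, whereas the TAD downstream, 1680 kb long and home to the kallikrein genes, had the same coordinates in both lists. On the whole chromosome the lists held 56 TADs with a median of 720 kb in control siRNA and 68 with a median of 600 kb in CTCF siRNA. The complete lists went the other way, with 2864 TADs (median 720 kb) in control siRNA and 2389 (median 840 kb) in CTCF siRNA.

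**Figure D1:**
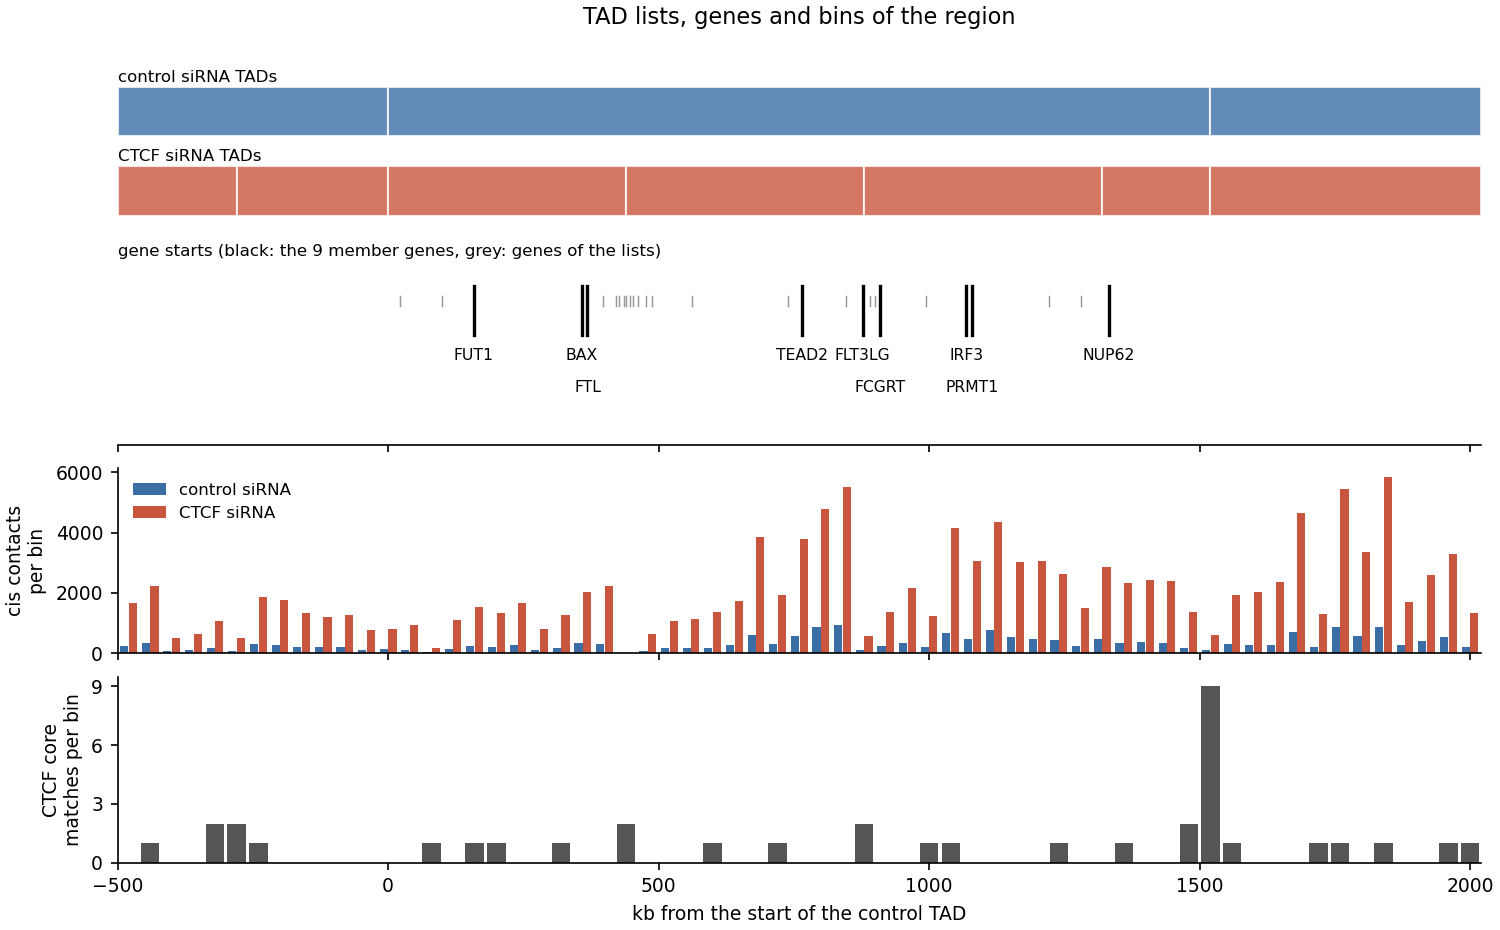
TADs of both lists (top), starts of the member genes and of the other gene groups described in the text, contacts of each 40 kb bin within the chromosome in both maps (middle) and CTCF core matches per bin (bottom), against the distance in kb from the start of the control TAD. The control TAD was listed as 4 CTCF siRNA TADs of 440, 440, 440 and 200 kb, and the first edge inside it fell on a bin with 1 and 2 contacts.

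Listed edges fell in the middle of 40 kb bins, and each new boundary is called here by a gene of its bin. For the insulation value, contacts between the 400 kb before a bin and the 400 kb after it were divided by their expected number, and the log2 of the same quotient for contacts within each flank was subtracted from its log2. A lower value means that fewer contacts crossed the bin. A minimum was a bin with the lowest value among the bins up to 3 away on each side, and it was assigned to a boundary at most 1 bin away. Its depth was measured to the lower of the highest values within 5 bins on either side. Over all listed edges the median insulation value was -0.93 at the edge bin and -0.94 at the next bin in control siRNA, and -0.64 and -0.63 in CTCF siRNA. At the bin before the edge it was weaker, at -0.64 in control siRNA and -0.46 in CTCF siRNA. A distance of 1 bin downstream is thus within the precision of the lists, which these values do not show for 1 bin upstream.

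The CGB boundary, at 49540000, divided the apoptosis and iron storage genes of part 1 from part 2. Its bin, chr19:49520001-49560000, holds genes for the beta subunits of luteinising hormone (part of LHB, with its start) and chorionic gonadotropin (CGB3, CGB2, CGB1, CGB5, CGB8 and part of CGB7), a cluster of near-identical copies. The bin contained 0 BglII sites, the enzyme that cut the DNA, and had 1 contact in control siRNA and 2 in CTCF siRNA, so it was not usable and the listed edge lay in a gap of the data. Between the usable bins on either side, 157 contacts crossed in control siRNA where 350.7 were expected, and 1165 in CTCF siRNA where 2310 were expected. The insulation value was -1.50 ± 0.12 (counting SD) in control siRNA and -1.30 ± 0.05 in CTCF siRNA. In control siRNA 1.99% of autosomal bins had a lower value. This level depended on the setting, and with flanks of 200 kb the control value was -0.79, against -0.89 at the FLT3LG boundary and -0.85 at the NUP62 boundary described next, while with balanced counts it was -0.99. The change, CTCF siRNA minus control, was 0.20 ± 0.13 with a 95% interval of -0.05 to 0.46, in the direction of more contacts across. It was 0.34 with flanks of 800 kb, with an interval of 0.15 to 0.53 that excluded 0, and 0.04 (-0.23 to 0.30) without contacts between neighbouring bins.

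The control map had a minimum 1 bin before the CGB boundary, in chr19:49480001-49520000 with GYS1 (glycogen synthase of muscle), RUVBL2 (an ATPase of chromatin remodelling complexes) and most of LHB. Its value was -1.50 ± 0.16 in control siRNA and -1.40 ± 0.06 in CTCF siRNA, which had its minimum in the same bin. The depth was 0.28 ± 0.20 in control siRNA and 0.65 ± 0.07 in CTCF siRNA. Downstream of it the control values stayed low, between -1.48 and -1.06 from 49560001 to 49760000. In CTCF siRNA the value of the last of these bins, chr19:49720001-49760000, was -0.35 against -1.06 in control siRNA.

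The FLT3LG boundary, at 49980000, divided part 2 from part 3. Its bin, chr19:49960001-50000000, holds FLT3LG, the cytokine that expands dendritic cells and blood progenitors, the ribosomal protein gene RPL13A, and the end of ALDH16A1. It was thinly covered, with 104 contacts in control siRNA, 581 in CTCF siRNA and 2 BglII sites. Across it, 378 contacts were seen where 372.7 were expected in control siRNA and 2463 where 2463 were expected in CTCF siRNA. The insulation value was -0.64 ± 0.08 and -0.60 ± 0.03, and the change was 0.04 ± 0.09 (95% interval -0.13 to 0.21). With balanced counts the change was 0.19. The interval around it, 0.02 to 0.36, used the SD of the unbalanced counts, so it is not an error of the balanced value. Contacts across thus lay close to the average of chromosome 19 for these distances in both maps, without correction for the coverage of the bins, while contacts within the flanks were 1.58 times the expected number in control siRNA and 1.52 times in the other map.

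Control siRNA had a minimum 1 bin before the FLT3LG boundary, in chr19:49920001-49960000, which holds SLC17A7, a vesicular glutamate transporter. Its value was -0.78 ± 0.09 and its depth 0.30 ± 0.12. The same bin had a value of -0.65 ± 0.04 in CTCF siRNA and was not a minimum there. The nearest minimum of the CTCF siRNA map lay 4 bins after the boundary, in chr19:50120001-50160000 with PRR12, RRAS (a small GTPase) and SCAF1, at -0.83 ± 0.03 with a depth of 0.23 ± 0.05, and no TAD edge of either list was there. At the FLT3LG boundary the minimum was thus seen in the map whose list has no edge and not in the map whose list has one. When a minimum had to be the lowest within 5 bins, this boundary had no control minimum either, since a bin of part 2, chr19:49720001-49760000, had a lower value of -1.06.

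The NUP62 boundary, at 50420000, divided part 3 from part 4. Its bin, chr19:50400001-50440000, holds NUP62, a subunit of the central channel of the nuclear pore, IL4I1, a secreted amino acid oxidase that overlaps it, and ATF5, a stress-responsive transcription factor. It was well covered, with 488 contacts in control siRNA and 2871 in CTCF siRNA. Across it, 266 contacts were seen where 372.7 were expected in control siRNA, and 1500 where 2463 were expected in CTCF siRNA. The insulation value was -0.80 ± 0.10 in control siRNA and -1.05 ± 0.04 in CTCF siRNA, and the change was -0.25 ± 0.10 (95% interval -0.45 to -0.04). Of the 3 boundaries inside the control TAD, the NUP62 boundary was the only one with a lower value in CTCF siRNA, except that the change at the FLT3LG boundary was -0.05 without contacts between neighbouring bins and -0.04 with the boundary moved 1 bin downstream. With balanced counts the change at the NUP62 boundary was -0.12 (-0.32 to 0.08, with the SD of the unbalanced counts). With flanks of 200 kb it was -0.30 with an interval that just included 0. Of all autosomal bins, 18.8% had a lower change. The lower values were not confined to the edge bin. The change was -0.29 in the bin before it and -0.22 in the bin after it, and it was below 0 in every bin from 50320001 to 50880000.

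Both maps had a minimum in the NUP62 bin itself. The depth was 0.22 ± 0.13 in control siRNA and 0.34 ± 0.05 in CTCF siRNA. The control minimum was weak, at less than 2 counting SD, and the difference of the depths was smaller than the SD of the control value.

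**Figure D2:**
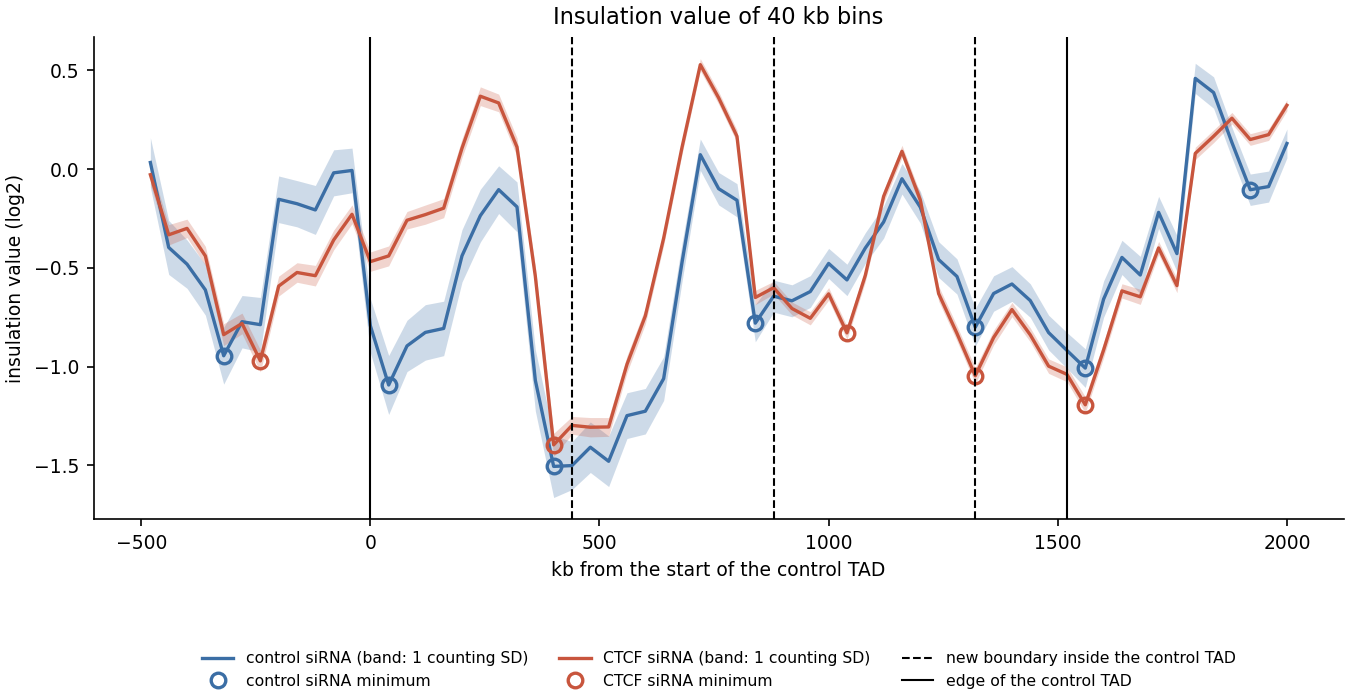
Insulation value (log2) of the 63 bins against the distance in kb from the start of the control TAD, with bands of 1 counting SD, minima as circles, edges of the control TAD as solid lines and the new boundaries inside it as dashed lines. Control siRNA had a minimum at or beside each of the 3 dashed lines, with values of -1.50, -0.78 and -0.80, and CTCF siRNA at the outer 2 of them, with -1.40 and -1.05.

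Counted together, 3 of the 3 boundaries inside the control TAD had an insulation minimum within 1 bin in control siRNA and 2 of 3 in CTCF siRNA. Those assigned to the CGB boundary in both maps and to the FLT3LG boundary in control siRNA lay in the bin before the edge. Over all autosomal bins the share within 1 bin of a minimum was 24.9% in control siRNA and 24.4% in CTCF siRNA. The control minima had depths of 0.28 ± 0.20, 0.30 ± 0.12 and 0.22 ± 0.13. A depth runs from a bin picked as the lowest to the highest values nearby, so it cannot fall below 0. Its SD treats the bins as independent, although neighbours share contacts, so the depths are no test of a minimum. With the stricter rule of the lowest value within 5 bins the count was 1 in control siRNA, at the CGB boundary, and 2 in CTCF siRNA. Of the 150 other control TADs that were subdivided, only the 109 on autosomes with a boundary value were used. They gave 121 internal boundaries. Of these boundaries, 59 (48.8%, Wilson 95% interval 40 to 57.6%) had a control minimum and 93 (76.9%, 68.6 to 83.5%) a minimum in CTCF siRNA. They were taken from the CTCF siRNA list, so the choice itself favours minima and lower values in that map. The intervals treat boundaries of 1 pooled map as independent, so the shares are no test of the maps. Their median insulation value was -0.36 in control siRNA and their median change -0.24 (interquartile range -0.46 to -0.00). The CGB, FLT3LG and NUP62 boundaries all had lower control values than that median, and the changes at the CGB and FLT3LG boundaries lay above the interquartile range.

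The outer edges of the control TAD were listed in both maps. At the upstream edge, in the bin of SULT2B1 (a sterol sulfotransferase), FAM83E, SPACA4 and RPL18, the value was -0.79 ± 0.14 in control siRNA and -0.47 ± 0.05 in CTCF siRNA, a change of 0.32 ± 0.14 (95% interval 0.04 to 0.61). The change there was 0.11 with balanced counts, 0.17 with flanks of 800 kb and 0.21 with flanks of 200 kb. The control minimum beside it, at chr19:49120001-49160000, had a value of -1.09 ± 0.15 and a depth of 0.86 ± 0.20. There was no minimum within 1 bin of this edge in CTCF siRNA, although the edge remained in the list. At the downstream edge, whose bin holds 9 of the repeated CTCF core matches and no protein-coding gene, the value was -0.92 ± 0.09 and -1.04 ± 0.04, a change of -0.12 ± 0.10 (-0.31 to 0.07). Both maps had their minimum in the next bin, with -1.01 ± 0.10 and -1.19 ± 0.04.

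The new edge in the upstream TAD lay at 48820000, in a bin with ODAD1, EMP3 and TMEM143. The value was -0.77 ± 0.13 in control siRNA and -0.78 ± 0.05 in CTCF siRNA, a change of -0.01 ± 0.14 (-0.29 to 0.27). A minimum lay beside it in both maps, 1 bin before in control siRNA (-0.94 ± 0.14, depth 0.79 ± 0.19) and 1 bin after in CTCF siRNA (-0.97 ± 0.06, depth 0.67 ± 0.07). In the 4 bins between 48880001 and 49040000, which follow this edge, the values were between -0.21 and -0.02 in control siRNA and between -0.59 and -0.36 in CTCF siRNA.

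Over the 63 bins, 5 had a change of -0.3 or lower (7.94%) and 16 a change of 0.3 or higher (25.4%). The shares over autosomal bins were 14% and 23.9%, and those over bins of chromosome 19 were 11.2% and 17.6%. The 5 lower bins lay outside the control TAD, 4 of them in the upstream one. Inside the control TAD 0 of 37 bins were lower and 15 of 37 were higher (40.5%). The higher bins lay in 2 runs of neighbours, which share contacts. The first, in part 1 from the RPL18 bin to the bin of BAX and FTL, had changes between 0.30 and 0.65, and the second, in part 2 from 49680001 to 49920000 with CD37 and TEAD2, had changes between 0.32 and 0.71. The BAX and FTL bin, for example, had a value of -1.07 ± 0.15 in control siRNA and -0.54 ± 0.05 in CTCF siRNA. Parts 3 and 4 held none of the 15. The median change was 0.06 in the window, -0.02 on chromosome 19 and 0.02 over autosomes, and the correlation of change with GC content over the 63 bins, which share contacts, was -0.19.

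Contacts were then counted within and between the 4 parts, without the edge bins. Within parts 2 and 3 they reached 1.57 and 1.59 times the expected number in the control map, and 1.51 and 1.52 times after CTCF siRNA. Within part 1 they were 0.89 and 0.90 times the expectation in the control and CTCF siRNA maps. Part 4, measured on 4 bins, had 1.23 times (95% Poisson interval 1.05 to 1.43) and 1.41 times (1.33 to 1.49). The expectation depends on distance alone and does not correct for the coverage of the bins, which differed between the parts. In control siRNA part 1 had 1952 contacts on 10 bins, 9 of them usable, and part 2 had 4213 on 10. Parts 3 and 4 had 4397 on 10 and 1249 on 4, so these ratios are not to be compared between the parts. Coverage also rose by different factors from control siRNA to CTCF siRNA, 6.69, 6.13, 6.03 and 6.81 in parts 1 to 4. On chromosome 19 the factor was 6.33, so differences between the maps are not corrected for coverage either.

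Between parts, the pair of parts 1 and 2 had 0.45 times the expected contacts in control siRNA and 0.50 times in CTCF siRNA, a ratio of the maps of 1.13 (exact 95% interval 0.95 to 1.34). Parts 2 and 3 had 1.01 and 1.0 times, a ratio of 0.99 (0.88 to 1.1). Parts 3 and 4 had 0.74 and 0.66 times, a ratio of 0.88 (0.74 to 1.05). None of the neighbouring pairs therefore differed between the maps beyond counting error. Parts 1 and 3, which are not neighbours, had 50 contacts in control siRNA (0.47 times) and 520 in CTCF siRNA (0.68 times), a ratio of 1.44 (1.08 to 1.97). Parts 1 and 4 had 7 and 68 contacts, a ratio of 1.38 (0.63 to 3.55), and parts 2 and 4 had 36 and 240, a ratio of 0.93 (0.65 to 1.35).

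**Figure D3:**
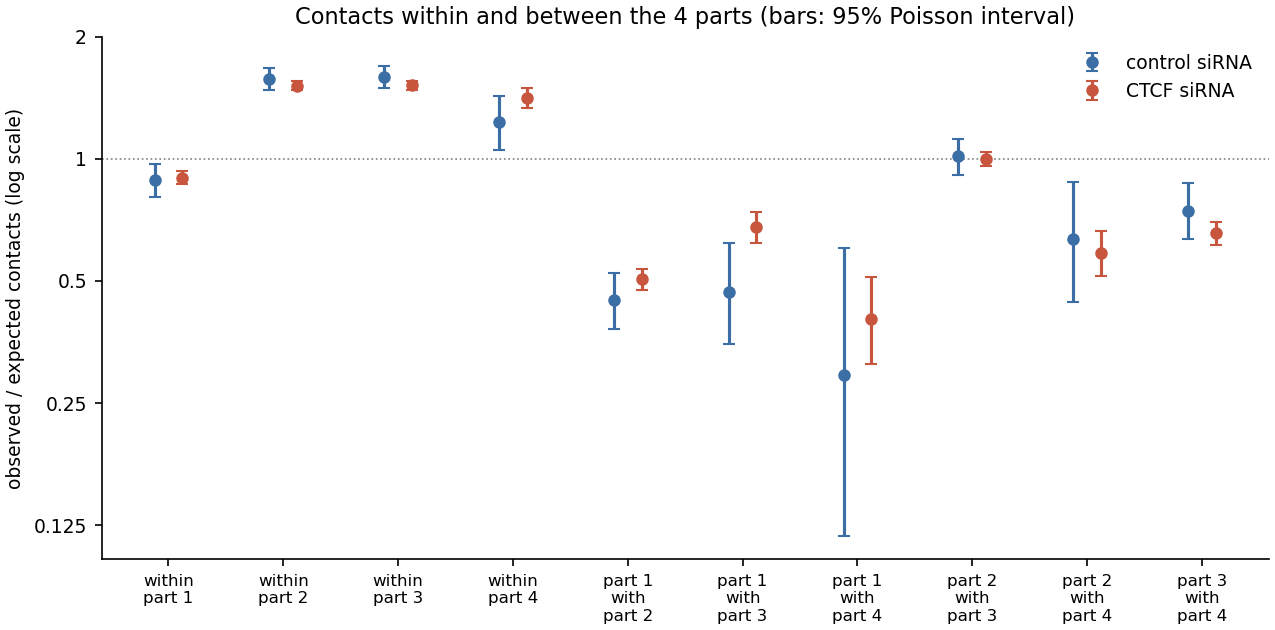
Observed over expected contacts (log axis) within each of the 4 parts and between each pair, in control siRNA and CTCF siRNA, with 95% Poisson intervals. The intervals of the 2 maps overlap except for part 1 with part 3, at 0.47 in control siRNA and 0.68 in CTCF siRNA.

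Over all parts, contacts between parts relative to contacts within them were -0.97 ± 0.06 on the log2 scale in control siRNA and -0.91 ± 0.02 in CTCF siRNA. The change was 0.06 ± 0.06 (95% interval -0.06 to 0.18), so the parts were not measurably more separated after CTCF depletion. Without contacts between neighbouring bins the change was -0.04 (-0.18 to 0.09). With balanced counts it was 0.15, in the direction of less separated parts. The interval around it, 0.03 to 0.28, used the SD of the unbalanced counts and not one for balanced counts. Among the 108 other subdivided control TADs with such a value, of 150, the median change was -0.14 (interquartile range -0.41 to 0.09). Of the 108, 77 had a lower change than this TAD. Their median control value was -0.32, and 7 of the 108 had a lower control value. These values are not corrected for coverage, which differed between the parts, and most subdivided TADs held 2 parts and not 4. The comparison therefore cannot show that the 4 parts were more separated in control siRNA than those of other TADs.

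**Figure D4:**
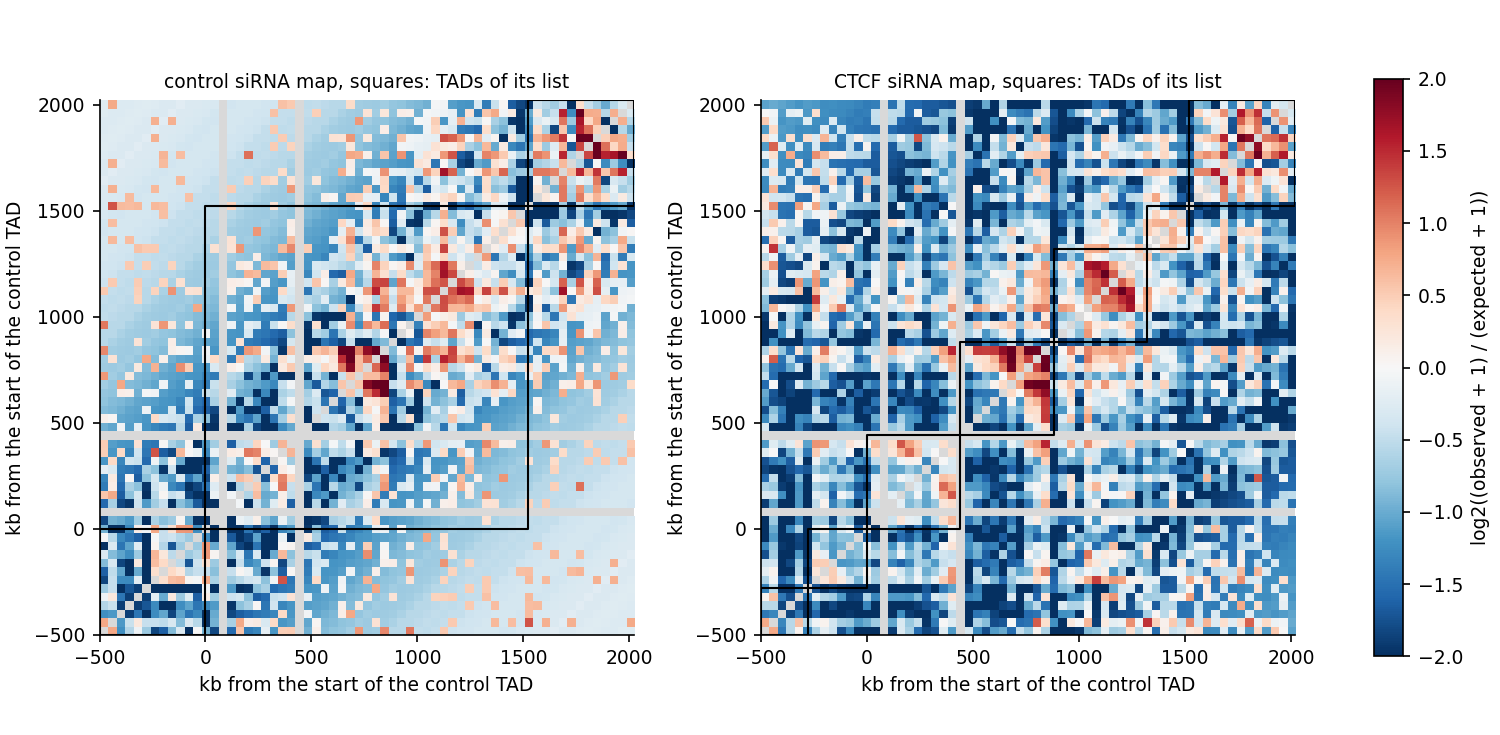
Contacts between pairs of 40 kb bins as log2((observed + 1) / (expected + 1)), in the control siRNA map (left) and the CTCF siRNA map (right), both axes in kb from the start of the control TAD. Black squares are the TADs of each list and grey lines the 2 bins that were not usable. Blocks of high contact stand inside the control TAD in both maps, within the places that CTCF siRNA lists as parts 2 and 3. In part 2 the block starts near the bin at 49720001, and pairs among the earlier bins of part 2 lie below the expected number.

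The edges of the control TAD were also compared as contacts between the 480 kb on either side. Across the upstream edge these amounted to 0.43 and 0.49 times the expectation in the control and CTCF siRNA maps, a ratio of 1.13 (0.96 to 1.34). Across the downstream edge they were 0.79 and 0.66 times, a ratio of 0.84 (0.75 to 0.94). The downstream edge was the one with fewer contacts across it after CTCF siRNA.

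The authors called TADs from the balance of upstream and downstream contacts, and the share of contacts within 2 Mb that point downstream was therefore taken over 5 bins on either side of each boundary. At the CGB boundary the share turned from 44.6% (95% binomial interval 41.2 to 48.0%) before it to 67.6% (63.8 to 71.2%) after it in control siRNA, and from 44.3% to 71.3% in CTCF siRNA. This was a turn from upstream to downstream contacts in both maps, although only 1 of the lists has an edge there. At the FLT3LG boundary the shares were 52.4% and 58.2% in control siRNA, and 50.1% (49.2 to 51.0%) and 55.0% in CTCF siRNA. At the NUP62 boundary they were 45.0% and 45.9% in control siRNA and 43.7% and 47.5% in CTCF siRNA, below 50% on both sides. Thus 1 of the 3 boundaries turned from below to above 50% in each map. Within 400 kb the count was 1 in control siRNA and 2 in CTCF siRNA, and with balanced counts within 2 Mb it was 2 in control siRNA and 1 in CTCF siRNA.

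The genes were placed by the bin of their start, with coordinates of GRCh37. For a gene inside a part, contacts of its bin with the rest of its own part were set against contacts with the other parts. Bins differ in coverage, so the values are not to be compared between genes. The ratio of the maps differed between bins as well, so a change from control siRNA to CTCF siRNA is not corrected for coverage. The parts differ in coverage too, so own against other parts within a bin is not corrected for the coverage of the partner bins.

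In part 1, FUT1 (chr19:49251268-49258647, minus strand) makes the H antigen, the precursor of the ABO blood groups. Its bin had 107 contacts with its own part in control siRNA, 0.86 times the expectation, and 709 in CTCF siRNA, 0.93 times. With the other parts it had 12 contacts (0.30 times, 95% Poisson interval 0.16 to 0.53) and 159 contacts (0.58 times, 0.49 to 0.67). The FUT1 bin was thus higher with part 1 than with the other parts in both maps, by a smaller margin in CTCF siRNA. BAX (chr19:49458072-49465055, plus strand), a BCL2 family protein that permeabilises mitochondria in apoptosis, and FTL (chr19:49468566-49470136, plus strand), the light chain of the iron store ferritin, start in the same bin, 81.9 and 71.4 kb before the CGB boundary. That bin had 163 contacts with its own part in control siRNA (1.39 times) and 900 in CTCF siRNA (1.24 times). With the other parts it had 38 contacts (0.52 times) and 266 (0.55 times), so this bin was higher with part 1 than with the other parts in both maps.

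In part 2, TEAD2 (chr19:49843852-49865714, minus strand) is a transcription factor that partners YAP and TAZ in Hippo signalling. Its bin had 286 contacts with its own part in control siRNA (2.15 times, 1.91 to 2.41) and 2002 in CTCF siRNA (2.44 times, 2.33 to 2.55). With the other parts it had 82 contacts (1.07 times, 0.85 to 1.32) and 488 (0.95 times, 0.87 to 1.04). The TEAD2 bin was higher with its own part than with the others in both maps, and the intervals of the maps overlapped for both measures.

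FLT3LG (chr19:49977464-49989488, plus strand) starts 2.54 kb before the listed edge, in the edge bin, so it could not be placed on one side at this resolution. Its bin had 34 contacts with part 2 in control siRNA (0.35 times, 0.24 to 0.49) and 41 with part 3 (0.42 times, 0.30 to 0.57). In CTCF siRNA it had 224 with part 2 (0.37 times, 0.32 to 0.42) and 173 with part 3 (0.28 times, 0.24 to 0.33). Part 3 was above part 2 in control siRNA and part 2 above part 3 in CTCF siRNA, with intervals that overlapped in both maps.

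In part 3, FCGRT (chr19:50010073-50029685, plus strand) encodes the heavy chain of the neonatal Fc receptor, which extends the life of IgG. Its bin had 116 contacts with its own part in control siRNA (1.23 times, 1.02 to 1.48) and 521 in CTCF siRNA (0.89 times, 0.82 to 0.97), and these intervals did not overlap. With the other parts it had 54 contacts (0.58 times, 0.43 to 0.75) and 418 (0.69 times, 0.62 to 0.75), with overlapping intervals. The FCGRT bin was thus less set apart from the other parts in CTCF siRNA, although the start of FCGRT lies 30.1 kb after a new edge. Its ratio of the maps was 5.61, below the window median of 6.35, and the own-part values are not corrected for it. IRF3 (chr19:50162826-50169132, minus strand), which activates interferon genes on viral infection, and PRMT1 (chr19:50179043-50192286, plus strand), the main enzyme of asymmetric arginine dimethylation, start in the same bin. That bin had 280 contacts with its own part in control siRNA (1.98 times, 1.75 to 2.22) and 1632 in CTCF siRNA (1.88 times, 1.79 to 1.97). With the other parts it had 50 contacts (0.79 times, 0.59 to 1.04) and 394 (0.92 times, 0.83 to 1.02).

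NUP62 (chr19:50410082-50433021, minus strand) starts 13.0 kb after the listed edge and in the edge bin. Its bin had 140 contacts with part 3 in control siRNA (1.44 times, 1.21 to 1.69) and 763 in CTCF siRNA (1.25 times, 1.17 to 1.35). With part 4, to which the list assigns its start, it had 76 contacts (1.13 times, 0.89 to 1.42) and 483 (1.17 times, 1.07 to 1.28). The NUP62 bin contacted both neighbours more than expected in CTCF siRNA, with overlapping intervals for the sides.

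**Figure D5:**
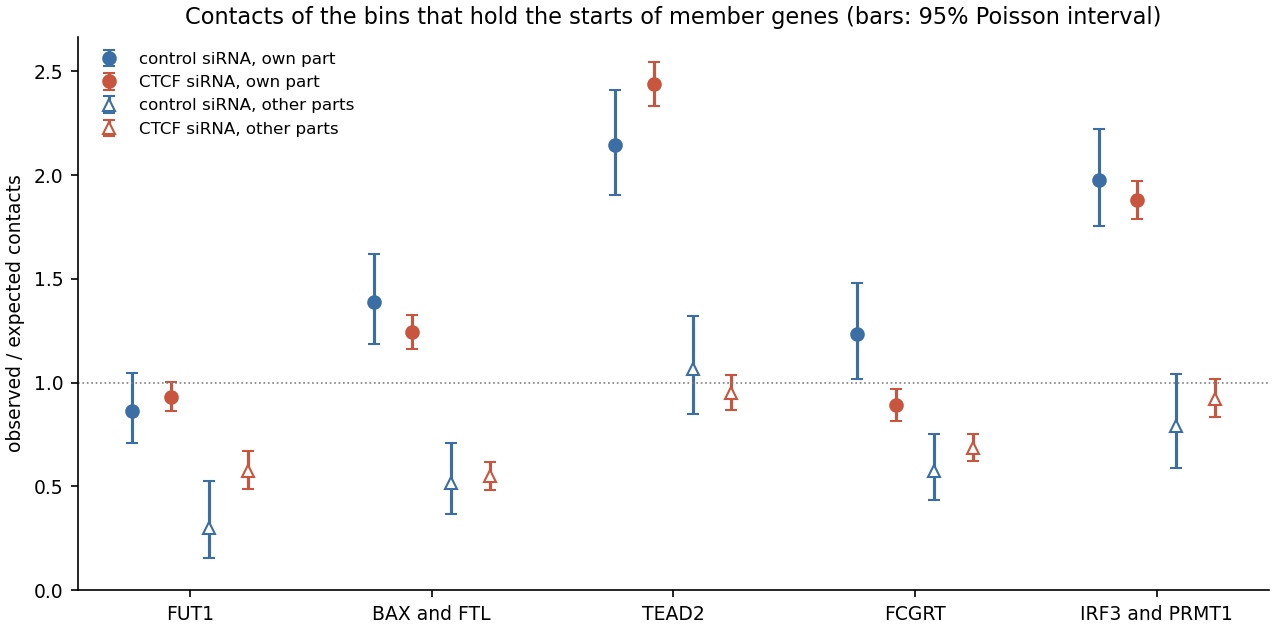
Observed over expected contacts of the bins that hold member genes inside a part, with their own part (filled circles) and with the other parts (open triangles), in control siRNA and CTCF siRNA, with 95% Poisson intervals. Every bin lay higher with its own part than with the other parts in both maps, for example FCGRT in CTCF siRNA at 0.89 and 0.69. The ratios are not corrected for coverage, which differed between the parts.

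Contacts between single members were too few in control siRNA for most pairs. The pair with the most, the FCGRT bin and the IRF3 and PRMT1 bin, 160 kb apart in part 3, had 16 contacts (1.86 times, 1.06 to 3.02 from Poisson counting) in the control map and 56 (1.05 times, 0.79 to 1.36) in the other. The FUT1 bin and the BAX and FTL bin, 200 kb apart in part 1, had 8 contacts in control siRNA (1.1 times, 0.48 to 2.17) and 73 in CTCF siRNA (1.62 times, 1.27 to 2.04). The TEAD2 bin and the IRF3 and PRMT1 bin, 320 kb apart on either side of the FLT3LG boundary, had 5 contacts (1.1 times, 0.36 to 2.61) and 34 (1.15 times, 0.80 to 1.61), close to the expected number in each map. The IRF3 and PRMT1 bin and the NUP62 bin, 240 kb apart, had 7 contacts (1.15 times, 0.46 to 2.36) and 66 (1.70 times, 1.31 to 2.16). The NUP62 bin holds the listed edge itself, so this pair does not measure contacts across it. Between the BAX and FTL bin and the IRF3 and PRMT1 bin, 720 kb apart, there was 1 contact in control siRNA and 8 in CTCF siRNA (0.75 times, 0.32 to 1.48).

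The other gene groups of the TAD were placed in the same way. The ribosomal protein gene RPL13A started in the FLT3LG edge bin and RPL18 in the first bin of part 1. The RPL18 bin had 39 contacts with its own part in control siRNA (0.63 times, 0.45 to 0.86) and 354 in CTCF siRNA (0.92 times, 0.82 to 1.02), and with the other parts 6 (0.20 times, 0.07 to 0.44) and 95 (0.45 times, 0.36 to 0.55). This bin had the highest ratio of the maps among usable bins of the window, 8.39, and these values are not corrected for it. Of the 7 gonadotropin beta subunit genes, 6 started in the CGB edge bin and CGB7 in part 2. Of the 5 immune genes, FLT3LG and IL4I1 started in edge bins, CD37 in part 2, and FCGRT and IRF3 in part 3. The 2 apoptosis regulators of the BCL2 family were divided between parts, with BAX in part 1 and BCL2L12 in part 3, whereas the fucosyltransferase genes FUT1 and FUT2 both lay in part 1, FUT2 in a bin with 28 contacts in control siRNA that was not usable.

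RNA and chromatin factors were found inside parts 1, 2 and 3. RUVBL2 lay in the last bin of part 1, where 96 contacts with its own part (1.07 times, 0.87 to 1.31) stood against 73 with the other parts (0.83 times, 0.65 to 1.05) in control siRNA, and 716 (1.29 times, 1.2 to 1.39) against 531 (0.93 times, 0.85 to 1.01) in CTCF siRNA. SNRNP70, a core protein of the U1 splicing particle, started in the first bin of part 2, on the other side of the CGB boundary. Its bin had 32 contacts with its own part (0.34 times, 0.23 to 0.48) and 20 with the other parts (0.23 times, 0.14 to 0.35) in control siRNA. In CTCF siRNA it had 196 (0.33 times, 0.29 to 0.39) and 245 (0.43 times, 0.37 to 0.48), so the SNRNP70 bin contacted the other parts no less than its own, although its list places it inside a TAD. NOSIP, PRMT1 and MED25, a Mediator subunit, started in part 3. The 3 channel and transporter genes KCNA7, TRPM4 and SLC17A7 all started in part 2.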

How the data were processed

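Hi-C was measured in LNCaP cells given control siRNA (2 libraries) or CTCF siRNA (4 libraries), grouped by the siRNA in their labels. As the methods state, BglII was the enzyme, and the authors aligned reads to hg19 through HiCUP and bowtie, pooled libraries and called TADs with a hidden Markov model on a directionality index. The labels also name Bowtie 1.1.0, SAMtools 1.2 and Picard 1.121. The deposited contact values are read-pair counts multiplied by bin factors, and the deposited TAD lists hold coordinates. Factors other than 1 occurred only from position 9400001 to 48120000, outside the window, and were divided out elsewhere, which gave whole numbers within 0.0101 plus 0.05% of the value for 99.96% and 99.97% of values. The comparisons had been chosen for raw counts.

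Expected contacts came from chromosome 19 by distance over usable bins, those with at least 10% of the median count in both maps. Errors are Poisson (delta method), and ratios carry exact intervals. A change of at least 0.3 was counted. The insulation value and its SD were tested on simulated maps with all bins usable and equal coverage, unlike the window. The other scores were not tested in this way. Genes came from GENCODE on GRCh37 by transcription start. Named genes were the 9 members, genes at TAD edges and gene lists by function, and the members and lists were chosen with earlier results of these data known. Some genes of the lists are not reported here. Alternatives varied flank, balancing, expected values, edge position and thresholds. Python 3.11.15, NumPy 2.4.6 and SciPy 1.17.1 were used.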

Additional observations from a re-analysis of the deposited data

How the results depend on the processing

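Of 48 alternatives to 8 results, 40 stayed within the counting interval or within 1.5 times of the main count, 8 moved and 0 reversed. Changes of sign within the counting interval were not counted as reversed. Without contacts between neighbouring bins the change was -0.05 at the FLT3LG boundary and -0.04 between parts. With the FLT3LG boundary moved 1 bin downstream it was -0.04. No paired analysis was possible because each condition is represented by 1 pooled map, and no replicate could be left out either. The deposited values, used instead of the counts, were an alternative added after the files had been seen. The number of TADs inside the control TAD was 4 under each of the edge rules. With balanced counts, 2 boundaries turned from upstream to downstream contacts in control siRNA in place of 1, and 1 in CTCF siRNA as in the main setting. With the lowest value required within 5 bins, 1 boundary had a control minimum in place of 3. Bins with a lower insulation value, 5 in the main setting, numbered 8 with balanced counts, 3 with at least 25% of the median count per bin, 0 at a change of 0.5, 3 with expected contacts from all autosomes, 10 with flanks of 200 kb and 1 with flanks of 800 kb. For these the cause was not tested. Between alternatives, the change at the CGB boundary ranged from 0.04 to 0.34, at the FLT3LG boundary from -0.05 to 0.19 and at the NUP62 boundary from -0.30 to -0.12. The interval, which included 0 in the main setting at the CGB and FLT3LG boundaries and for contacts between parts, excluded 0 with flanks of 800 kb at the CGB boundary, and with balanced counts at the FLT3LG boundary and between parts. At the NUP62 boundary it excluded 0 in the main setting and included 0 with balanced counts and with flanks of 200 kb. Intervals with balanced counts used the SD of the unbalanced counts, so they do not decide whether the balanced changes differ from 0. Depth limits what the control map can show for single pairs of member genes, whose bins shared at most 16 contacts there.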
